A study of Solanum lycopersicum with 21 samples.

Results

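The cytochrome P450 transcripts of tomato leaves Solyc09g066400, Solyc04g078290 and Solyc11g069800 were followed across all treatment groups of the array experiment. They are the P450 genes that the study listed among the transcripts higher after the peptide BP178, and they were grouped here because all of them were also higher after salicylic acid (SA). Solyc04g078290 also stands on the study's list after flg15. Each gene was followed by 1 probe set, found through its locus number in the annotation of the supplementary list. These are 3 of the 67795 deposited probe sets. The supplementary list holds only transcripts the study called changed, so an unchanged further probe set of these genes would be missed. None was sought by array symbol for Solyc09g066400 and Solyc04g078290. A probe set is the group of short probes that together read one transcript. Because both the BP178 and the SA comparisons served to choose these genes, their values in those comparisons are given as a description without a test, and tests are given only for jasmonic acid (JA), ethylene and the flagellin peptide flg15.

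Leaves of cv. Rio Grande plants were taken at 24 h after treatment, and RNA of 10 plants was pooled for each array. Experiment 1 held mock-sprayed non-treated controls (NTC) and plants given 125 µM of BP178, SA or JA (2.5 mM each), or ethylene released by 1 mM ethephon in 2.5 mM phosphate buffer. Experiment 2 held NTC plants of its own and plants sprayed with flg15 at 125 µM. The 7 groups had 3 arrays each, 21 in all. Ethylene was given in a closed chamber according to the methods but by spraying according to the labels, and no enclosed control was described, so the chamber and ethylene cannot be told apart. The 4 treatments of experiment 1 share their NTC arrays, and an unusual NTC array moves all of these comparisons together. Since each array stands for a pool, p values measure the spread between pools. The deposited values are log2 intensities, with array medians from 2.63 to 2.85, and a transcript near those medians is close to background. The leaf label was borne out by its markers, since the 6 probe sets of Rubisco small subunits and chlorophyll-binding proteins had medians over all arrays from 7.82 to 12.47, whereas the fruit genes E8, 2A11 and PG2 stayed at or below 2.32 on every array.

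Cytochrome P450s are heme enzymes that mostly use molecular oxygen and electrons from NADPH to hydroxylate small molecules. In plants they form one of the largest enzyme families and take part in the synthesis and breakdown of hormones, phenolics, terpenoids and compounds toxic to microbes. Allene oxide synthases of the CYP74 family are unusual members, because they rearrange fatty acid hydroperoxides without oxygen or a reductase, and the plastid enzyme of this kind commits such a hydroperoxide to the synthesis of JA.

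The 3 genes come from different branches of the family and lie on different chromosomes by their locus numbers. Solyc09g066400 (LOC101248046, chromosome 9) is annotated as premnaspirodiene oxygenase-like, after an enzyme that in henbane oxidizes a sesquiterpene on the way to a phytoalexin, a defensive compound made upon attack. Solyc04g078290 (LOC101267231, chromosome 4) is annotated as isoflavone 2'-hydroxylase-like, after an enzyme of legumes that acts in the synthesis of isoflavonoid phytoalexins. Solyc11g069800 (chromosome 11) is annotated as allene oxide synthase, and its gene number corresponds to AOS2 in RefSeq. For the first and the second of these proteins the names rest on similarity, and no source read here gives the product in tomato.

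Solyc09g066400 had the widest range of the 3, from background to among the bright transcripts. In NTC of experiment 1 the log2 values were 2.58, 2.51 and 3.28, which is next to the array medians. After SA they were 8.70, 9.34 and 8.78, after JA 7.13, 7.13 and 7.98, and after BP178 5.82, 4.90 and 4.61. The ranges of SA, JA, BP178 and NTC did not overlap with each other, and BP178 was the most scattered of them (SD 0.63, n = 3). After ethylene the values were 2.97, 2.97 and 2.94, inside the range of NTC. In experiment 2 NTC had 2.48, 2.74 and 2.49 and flg15 plants 2.62, 2.51 and 2.63, so that the transcript was near background on all 6 arrays. The order of group means was SA, JA, BP178, ethylene, NTC of experiment 1, flg15 and NTC of experiment 2, and from ethylene downwards neighbours overlapped. In bulk leaf RNA, more cells of a type and more transcript per cell cannot be told apart.

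**Figure D1:**
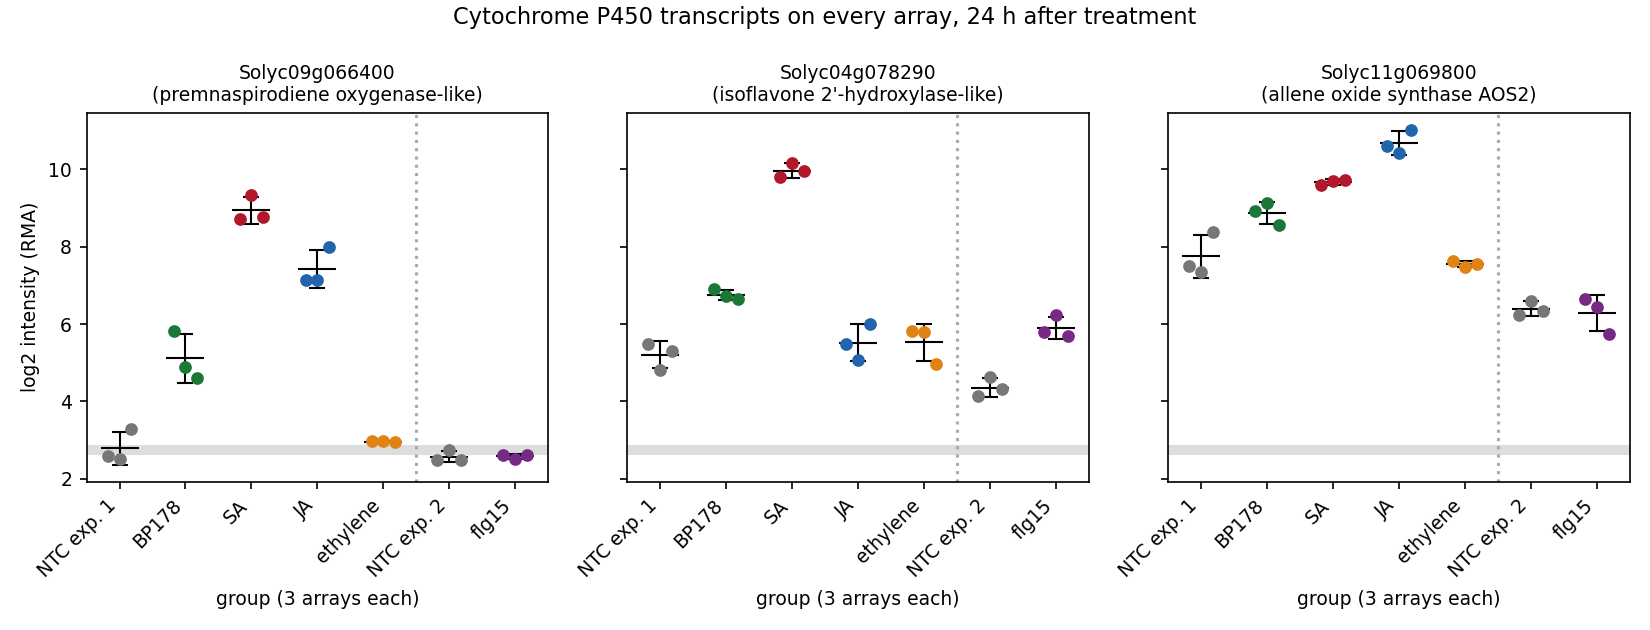
Log2 RMA intensity (y axis) of Solyc09g066400, Solyc04g078290 and Solyc11g069800 on each of the 21 arrays (points), by group (x axis), with the group mean and SD (bars, n = 3); the grey band spans the array medians, 2.63 to 2.85, and the dotted line separates experiment 1 from experiment 2. Solyc09g066400 lies at the grey band in both NTC groups, after ethylene and after flg15, Solyc04g078290 is highest after SA, and Solyc11g069800 is highest after JA.

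Solyc04g078290 was measured above background in every group. Its values were 5.50, 4.81 and 5.31 in NTC of experiment 1 and 9.80, 10.16 and 9.94 after SA. After BP178 they were 6.91, 6.71 and 6.66, above every NTC array and below every SA array. After JA the arrays gave 5.49, 5.07 and 6.01 and after ethylene 5.81, 5.80 and 4.96, and both groups overlapped with NTC. In experiment 2 the NTC values were 4.13, 4.63 and 4.32, and flg15 plants had 5.80, 6.23 and 5.69 without overlap. The order of means was SA, BP178, flg15, ethylene, JA and the NTC of experiments 1 and 2, in which flg15, ethylene, JA and NTC of experiment 1 overlapped in turn while SA, BP178 and NTC of experiment 2 stood clear of their neighbours.

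Solyc11g069800 (AOS2) was well above background in all groups and was highest after JA. The NTC arrays of experiment 1 gave 7.51, 7.35 and 8.39, the JA arrays 10.61, 10.42 and 11.02, and the SA arrays 9.58, 9.70 and 9.72. After BP178 the values were 8.92, 9.14 and 8.55, of which the lowest lay 0.17 above the highest NTC array. Ethylene arrays had 7.64, 7.48 and 7.56, within the range of NTC. In experiment 2 the NTC arrays had 6.25, 6.61 and 6.32 and the flg15 arrays 6.66, 6.44 and 5.75, with overlap. The order of means was JA, SA, BP178, NTC of experiment 1, ethylene, NTC of experiment 2 and flg15, in which NTC of experiment 1 overlapped with ethylene, and NTC of experiment 2 with flg15.

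After SA and BP178, the comparisons used in the choice, the size of the difference fell in the same order. Solyc09g066400 had a log2 FC of 6.15 after SA (SE 0.27), an FC of 71.2, and 2.32 after BP178. Solyc04g078290 had 4.76 after SA (SE 0.25, FC 27.1) and 1.55 after BP178 (FC 2.93). Solyc11g069800 had 1.92 after SA (SE 0.25, FC 3.78) and 1.12 after BP178 (FC 2.17). A transcript was called higher where its FC reached 2, and lower where it was 0.5 or less, if limma's p, adjusted across the array by the Benjamini-Hochberg method, was under 0.05; these are the study's thresholds. By FC alone, 3 of the 3 reached 2 after SA, where 2.26% of all probe sets were called higher in limma. By FC alone, 3 of the 3 also reached it after BP178, where 0.124% of all probe sets were called higher and 0.0133% lower. The counts of the 3 genes were made without a test and are not set against these shares. Nothing is read from these counts, since the genes were chosen on them. The FC of Solyc09g066400 starts from NTC values at background, which leaves its size uncertain. The log2 FC of AOS2 after BP178 was 1.80 against the NTC of both experiments together, and it was short of an FC of 2 without NTC replicate 2 (0.92) or without BP178 replicate 2 (0.99).

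JA raised 2 of the 3 P450s, where 1.64% of all probe sets were called higher. Solyc09g066400 rose to an FC of 24.7 (log2 FC 4.63, SE 0.27, adjusted p = 8.22e-10 from limma). AOS2 rose to an FC of 7.65 (log2 FC 2.94, SE 0.25, adjusted p = 7.75e-08). Solyc04g078290 did not pass the test, with a log2 FC of 0.32 and a confidence interval (95%) from -0.21 to 0.84 (adjusted p = 0.623 from limma). The trichome marker MTS1, a monoterpene synthase of glandular hairs, was also higher after JA, with 4.26, 6.02 and 4.94 against 2.05, 2.11 and 2.43 in NTC (log2 FC 2.88, adjusted p = 6.08e-07 from limma). NDPS1 (CPT1), the other trichome marker measured, had a mean of 3.13 after JA and 2.75 in NTC (adjusted p = 0.597 from limma). The part of trichomes in the JA values was not tested. MTS1 was not higher after SA, with a mean of 2.00 against 2.20.

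Ethylene left the 3 P450s near their NTC values, and 0 of the 3 were called in limma. Over all probe sets 1.18% were called higher after ethylene and 0.667% lower. The log2 FC was 0.17 for Solyc09g066400 (confidence interval from -0.40 to 0.75), 0.32 for Solyc04g078290 (from -0.20 to 0.84) and -0.19 for AOS2 (from -0.71 to 0.32). Each interval leaves out a doubling. In the direct comparison of JA with ethylene, which does not use the NTC arrays and was added after the values had been seen, 2 of the 3 were called higher after JA, where 1.21% of all probe sets were called higher and 1.56% lower. The log2 difference was 4.45 for Solyc09g066400 (SE 0.27, adjusted p = 1.06e-09 from limma) and 3.13 for AOS2 (SE 0.25, adjusted p = 3.23e-08). For Solyc04g078290 it was -0.003 (confidence interval from -0.52 to 0.52, adjusted p = 0.998 from limma).

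In flg15 plants, which were compared with NTC of their own, 1 of the 3 was overexpressed, where 0.218% of all probe sets were called higher and 0.0384% lower. This was Solyc04g078290, which the study had also listed for flg15, with an FC of 2.92 (log2 FC 1.55, SE 0.25, adjusted p = 0.00356 from limma), and its adjusted p stayed at or below 0.0403 in the alternatives run. The log2 FC was 0.01 for Solyc09g066400 (confidence interval from -0.56 to 0.59, adjusted p = 0.992 from limma) and -0.11 for AOS2 (from -0.62 to 0.41, adjusted p = 0.919).

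**Figure D2:**
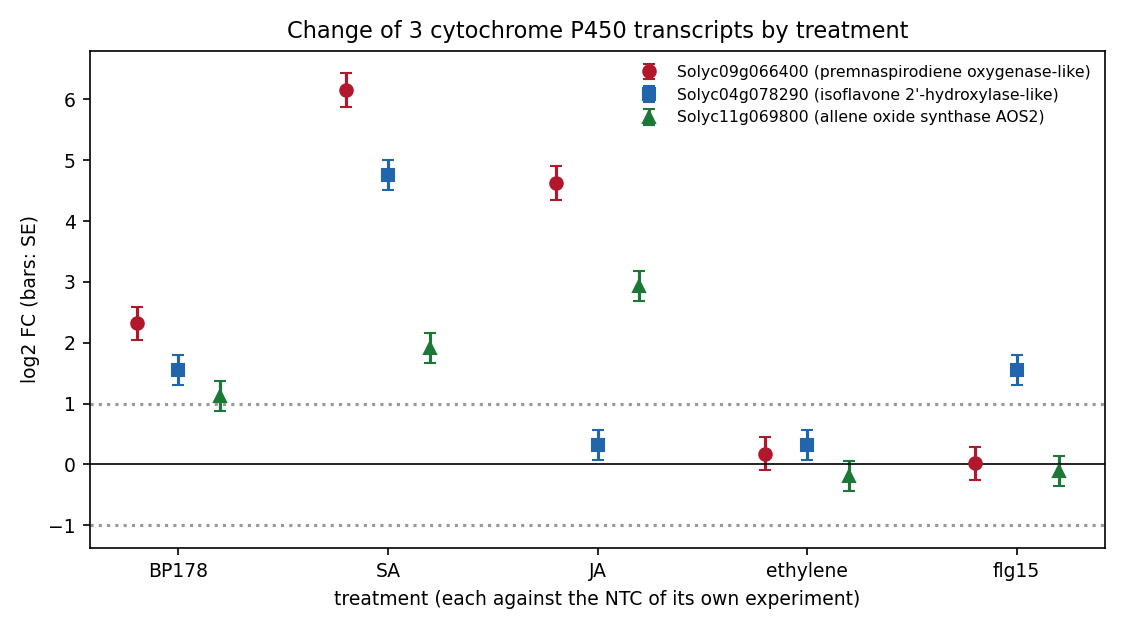
Log2 FC (y axis, bars are the SE of the limma fit) of the 3 P450 transcripts after each treatment (x axis) against the 3 NTC arrays of the same experiment; dotted lines mark an FC of 2 and of 0.5. Solyc04g078290 (squares) stands at 1.55 after both peptides and at 0.32 after JA and ethylene, and Solyc09g066400 (circles) and Solyc11g069800 (triangles) are near 0 after ethylene and flg15.

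The NTC of the 2 experiments gave different levels for a part of these genes. AOS2 had a mean of 7.75 ± 0.56 (SD, n = 3) in experiment 1 and 6.39 ± 0.19 (SD, n = 3) in experiment 2. Solyc04g078290 had 5.21 ± 0.35 and 4.36 ± 0.25 (SD, n = 3 each). Both had every array of experiment 1 above every array of experiment 2, which was so for 9.74% of all probe sets. The flg15 levels are therefore set against their own NTC only, and levels after flg15 and after the other treatments are not compared by a test.

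The transcripts with the most similar pattern were sought among 7141 annotated probe sets whose group means spanned at least 1 log2 unit, by Pearson's r over the 7 group means. For Solyc09g066400 they were LOC101263188, the endochitinase CHI14 (Solyc02g061770), which degrades fungal chitin, and LOC101261300, all at r = 0.99. CHI14 had means of 3.04 in NTC of experiment 1, 8.63 after SA, 7.62 after JA and 5.98 after BP178. For Solyc04g078290 they were LOC101268197, the MAP kinase gene MAPK7, of a class of signaling kinases, and LOC101244811, all at r = 0.99. MAPK7 had 3.92 in NTC of experiment 1, 5.57 after SA and 4.57 after BP178. It had 4.11 after flg15 and 3.63 in NTC of experiment 2. LOC101268197 had a mean of 2.95 after SA and was below the array medians in all other groups, from 1.78 to 2.20. For AOS2 they were LOC101265426, LOC101248073 and LOC101251744, each at r = 0.99. With 7 points and so many candidates such values are a description, and groups of one experiment share their NTC. The 7 means include those after SA and BP178, the groups used in the choice of the genes.

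Other P450s were examined whatever their values where the array symbol or its RefSeq synonyms gave a P450 name, 14 probe sets in all. P450s known only by a LOC number were left out, as Solyc09g066400 and Solyc04g078290 would have been. The 14 therefore do not stand for the whole family. After SA 2 of the 14 rose and 2 fell, where 2.26% of all probe sets were called higher and 2.12% lower, and the median log2 FC was -0.10 against 0.01 over all probe sets. After JA 2 rose and 1 fell, where 1.64% of all probe sets were called higher and 1.70% lower, with a median of 0.03. After ethylene 1 rose and 1 fell, where 1.18% were called higher and 0.667% lower. After BP178 0 of the 14 were called in limma, where 0.124% of all probe sets were called higher and 0.0133% lower. After flg15 0 of the 14 were called too, where 0.218% were called higher and 0.0384% lower. With such small shares, 0 of 14 is not read as a result.

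Among the oxylipin enzymes, AOS (also AOS1), another allene oxide synthase gene of the array, moved with the hormones. Its NTC arrays of experiment 1 gave 5.42, 4.46 and 5.78, the JA arrays 9.01, 8.86 and 9.01, and the SA arrays 6.92, 7.52 and 6.87. It rose by 3.74 on the log2 scale after JA (SE 0.31, adjusted p = 6.20e-08 from limma) and by 1.89 after SA (adjusted p = 0.00019), beside 2.94 and 1.92 for AOS2. After ethylene it fell by 1.25 (adjusted p = 0.0192), with values of 4.52, 3.97 and 3.41 that overlapped NTC. This call was lost without any of NTC replicates 1 and 3 or ethylene replicates 2 and 3, with adjusted p from 0.0611 to 0.133, and against the NTC of both experiments together, where the log2 FC was -0.30 (adjusted p = 0.868 from limma). After BP178 AOS gave 4.70, 4.98 and 4.44, which overlapped NTC (log2 FC -0.51, adjusted p = 0.808 from limma). After flg15 its log2 FC was 1.01, without overlap with NTC of experiment 2, but it was not called (adjusted p = 0.181 from limma). HPL, the hydroperoxide lyase that cleaves the same substrates to green leaf volatiles, had a log2 FC of 0.36 after JA and did not pass (adjusted p = 0.0612). DES, which makes divinyl ethers, was below the array medians in NTC, with a mean of 1.83, and had 0.71 after SA, short of an FC of 2.

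Of the P450s of hormone breakdown and synthesis, 3 were called after at least 1 treatment. CYP707A1, which inactivates abscisic acid by hydroxylation, fell by 1.32 after SA (SE 0.23, adjusted p = 0.000347 from limma) and rose by 1.12 after ethylene (adjusted p = 0.00442). CYP85A1 (Dwarf), which acts at the end of brassinosteroid synthesis, rose by 1.38 after SA (adjusted p = 0.000639), a call that ended against the NTC of both experiments together, where its log2 FC was 0.94. CYP734A8, of a family that inactivates brassinosteroids, rose by 1.20 after JA (adjusted p = 0.000645) and had -0.79 after SA. RefSeq also gives this name as a synonym of CYP734A7, so the 2 genes are told apart here by probe set only. The cytokinin hydroxylases CYP735A1 and CYP735A2 and the brassinosteroid gene CYP85A3 had means between 1.71 and 2.39 in NTC of experiment 1, below the array medians, and were not called after any treatment.

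In primary metabolism, CYP51, the sterol demethylase needed for all membrane sterols, fell by 1.68 after SA (SE 0.16, adjusted p = 1.56e-07 from limma), from 9.51 to 7.83. CYP97C11, a carotenoid hydroxylase of lutein synthesis, fell by 1.06 after JA (adjusted p = 1.90e-05), and its FC was short of the threshold without JA replicate 3 (log2 FC -0.97) or without NTC replicate 2 (-0.98). CYP97C11 also had -0.83 after SA (adjusted p = 0.000221 from limma) and -0.49 after ethylene (adjusted p = 0.0469), both short of the FC threshold. CYP97A29, a carotenoid hydroxylase of the same pathway, had -0.39 after SA and was not called. The triterpenoid gene CYP716A44 and CYP734A7, of the brassinosteroid-inactivating family, were not called after any treatment.

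**Figure D3:**
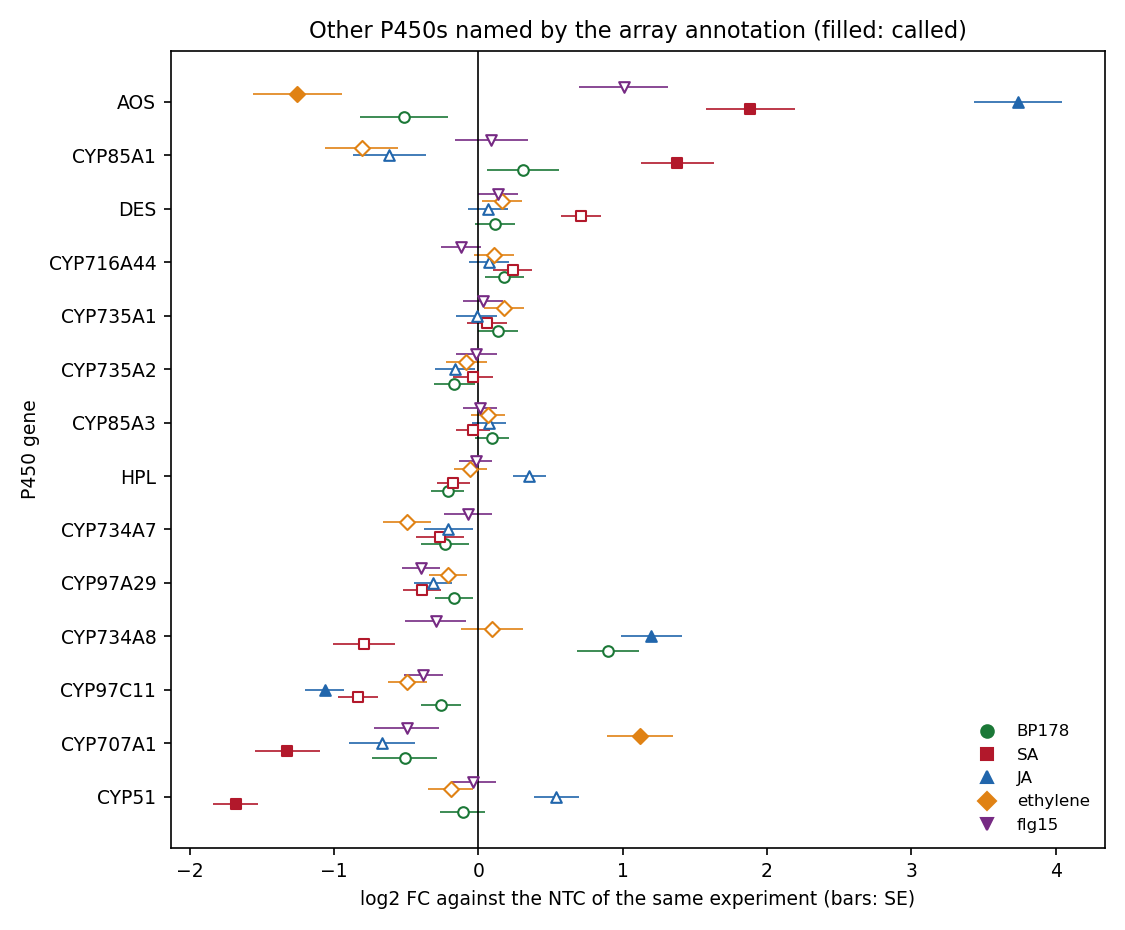
Log2 FC (x axis, bars are SE) after 5 treatments of the 14 other P450s named by the array annotation (y axis, ordered by the SA value); filled symbols passed an FC of 2 and an adjusted p of 0.05 in limma. AOS after JA, at 3.74, lies farthest from 0, and CYP51 after SA, at -1.68, is the lowest.

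The study's own list after SA held 10 more probe sets annotated as P450 enzymes in the part that was read, which ends before the weaker changes. They had been selected for SA on these arrays, so their SA values, log2 FC from 2.05 to 4.33, are not evidence of a direction for the family. After JA 4 of the 10 rose and 1 fell, after ethylene 3 rose, after flg15 1 rose, and after BP178 0 were called in limma. Over all probe sets 1.64% were called higher and 1.70% lower after JA, and 1.18% higher after ethylene, 0.218% after flg15 and 0.124% after BP178. That none was called after BP178 follows in part from the choice, since the P450s of the BP178 list are the 3 genes above. JA and ethylene share the NTC arrays with SA, so low NTC values favor a rise in all of them.

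Of these 10, Solyc06g074420 and Solyc07g006890 are annotated as P450 94A1-like, after a fatty acid hydroxylase of vetch. Solyc06g074420 went from an NTC mean of 2.07, at background, to 5.89 after JA (log2 FC 3.83, SE 0.28, adjusted p = 9.81e-09 from limma) and to 3.83 after ethylene (log2 FC 1.76). Solyc07g006890 rose by 1.96 after JA (adjusted p = 9.47e-07) and had 0.08 after ethylene. Solyc10g083690 (P450 76A2-like) rose by 2.13 after JA, on arrays that scattered widely (SD 1.18, n = 3). The secologanin synthase-like Solyc10g051020 fell by 1.27 after JA (adjusted p = 0.000397), from 7.30 to 6.03, while it stood at 10.50 after SA. That call ended against the NTC of both experiments together, at a log2 FC of -0.96.

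Solyc12g042480, CYP736A4 in RefSeq and flavonoid 3',5'-hydroxylase-like in the study's list, rose after JA (log2 FC 1.19, adjusted p = 0.00447 from limma), ethylene (1.35) and flg15 (2.33, SE 0.26, adjusted p = 4.85e-05). The JA call ended without NTC replicate 3, at 0.99, and the study's flg15 list also held this gene. The cytokinin hydroxylase-like Solyc03g095310 rose by 1.74 after ethylene (adjusted p = 0.00207) and had -0.03 after JA. Solyc02g092860 (P450 81D1-like), the abscisic acid 8'-hydroxylase-like Solyc08g075320 and the flavonoid 3'-monooxygenase-like Solyc04g071780 were not called after JA, ethylene, flg15 or BP178. Solyc04g071780 scattered widely in NTC of experiment 1 (SD 1.14) and after JA (SD 1.37), BP178 (SD 1.47) and ethylene (SD 1.53, n = 3 each). Its confidence intervals after JA, from -0.83 to 2.30, and ethylene, from -0.97 to 2.16, include a doubling. Those after BP178, from -1.18 to 1.95, and flg15, from -1.23 to 1.90, do so too.

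Solyc04g078340 is a neighbour of Solyc04g078290, carries the same annotation and is separated from it by 3 genes in RefSeq. Its arrays gave 5.45, 5.35 and 5.75 after SA against 2.69, 2.21 and 2.14 in NTC of experiment 1. After BP178 it had 2.21, 2.26 and 2.56 and after flg15 2.22, 2.21 and 2.24, all below the array medians, where Solyc04g078290 was higher than NTC in both. Its log2 FC was 0.12 after flg15 (adjusted p = 0.881 from limma), and the difference between both genes was not tested. Probes of similar genes can read each other's transcript, and the probe sequences were not analysed here.

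**Figure D4:**
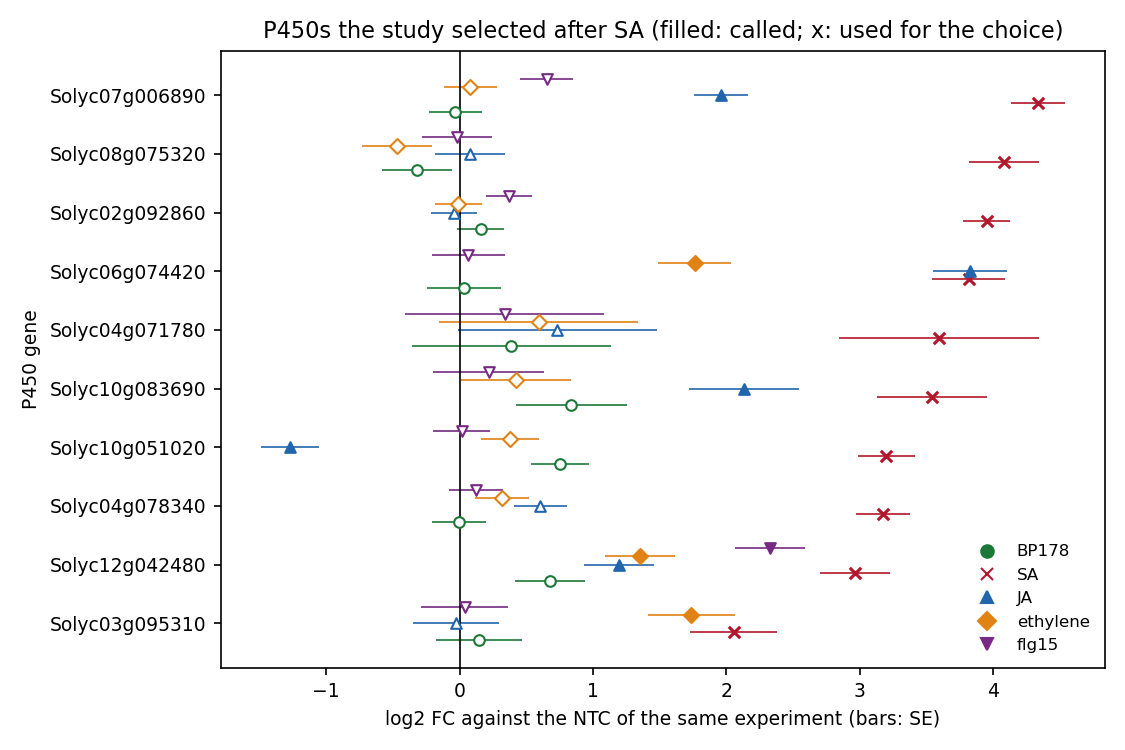
Log2 FC (x axis, bars are SE) of the 10 other P450s that the study selected after SA (y axis, ordered by the SA value); crosses are the SA values used in the choice, and filled symbols passed an FC of 2 and an adjusted p of 0.05 in limma. After JA, 4 genes are filled to the right and Solyc10g051020 is filled to the left at -1.27.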

How the data were processed

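Labelled RNA was hybridized to GeneChip Tomato Gene ST arrays, and the authors background-adjusted, normalized and summarized the probe intensities with the Expression Console software (RMA; no version stated). The deposited log2 values, 67795 probe sets on 21 arrays, were used as they are. They hold no detection calls, and precision is limited by the number of arrays. The paper states fewer probe sets for this array, and all shares given here are over the deposited ones. In limma 3.58.1 (R 4.3.3) one mean per group was fitted over all arrays, with a constant eBayes prior, and treatments were set against the NTC arrays of the same experiment. Adjusted p values are two-sided, from limma's moderated test over all probe sets. The labels name biological replicates. Symbols came from the array annotation (1 symbol for 23194 probe sets, several for 170, none for 44431), of which 23107 matched a RefSeq gene of assembly SLM_r2.1. The supplementary list gave locus numbers and descriptions only, its SA sheet was read in part, and its fold changes and p values were not used. The members, lists and tests were chosen with earlier results of these data known, and JA against ethylene was added after the values had been seen. Named genes are the members, P450s with a known role, the 3 largest called rises and falls per treatment among other P450s, the 3 most similar patterns per member and neighbouring P450s. The fit was tested on simulated data. Alternatives were other normalization, a filter on dim probe sets, separate experiments, another prior, array weights, a replicate block, other thresholds, pooled NTC and each array left out.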

Additional observations from a re-analysis of the deposited data

How the results depend on the processing

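The calls of the 3 P450s after JA, ethylene and flg15 and in JA against ethylene kept their side of the thresholds in all alternatives run, and leaving out 1 array gave log2 FC within the same direction wherever a gene was called. Against the NTC of both experiments together, the values used in the choice moved to 1.98 (BP178) and 5.18 (SA) for Solyc04g078290 and to 1.80 (BP178) and 2.60 (SA) for AOS2. Of the 14 other P450s, that setting gave 1 higher after SA and 2 lower after JA. Without a minimum FC, 4 were lower after SA and 2 after ethylene, and at an adjusted p below 0.01 0 were lower after ethylene. With 1 array left out, the number lower ranged from 0 to 1 after JA and from 0 to 1 after ethylene. Of 18 calls of single other P450s, 13 were kept in all alternatives. Same-numbered arrays were not treated as pairs in the main fit. The correlation of their deviations from group means exceeded 0.1 in 10 of 33 same-numbered pairs and ranged from -0.28 to 0.19. It was positive in all replicate 2 pairs of experiment 1 (0.05 to 0.16) and negative in all pairs with ethylene replicate 1. A weak pairing is therefore not excluded. With the replicate block, the log2 FC of Solyc09g066400 after JA stayed at 4.63 (adjusted p = 1.05e-07 from limma). With that block, no call of the 3 P450s after JA, ethylene or flg15 changed, and 74 instead of 84 probe sets were called higher after BP178. With each experiment fitted alone, 88 instead of 148 probe sets were called higher and 15 instead of 26 lower after flg15. Over all probe sets the count called higher after BP178 was 128 against the NTC of both experiments and 49 at an adjusted p below 0.01, and without a minimum FC 3007 were higher after SA, 2544 after JA and 1887 after ethylene, against 1531, 1109 and 800. After flg15, 108 were lower against the NTC of both experiments and 52 with array weights. Leaving out 1 array gave 47 (without NTC replicate 2) to 80 higher after BP178, 49 without BP178 replicate 2. It gave 7 to 151 lower after flg15 instead of 26, with 73, 12 and 7 without NTC replicates 1, 2 and 3 of experiment 2, and 8 and 151 without flg15 replicates 1 and 2, so that these background shares rest on single arrays. With 3 arrays a group and NTC at background, the FC of dim genes is uncertain.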

Other observations

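Of the other P450s, AOS was also higher in NTC of experiment 1 than of experiment 2, with 5.22 ± 0.68 and 3.31 ± 0.30 (SD, n = 3 each), a log2 difference of 1.91. Among the 14 P450s of the array annotation 2 had every NTC array of experiment 1 above those of experiment 2, among the 10 selected after SA 4 did, and 9.74% of all probe sets did. Solyc07g006890 had 6.97 ± 0.26 and 5.21 ± 0.20, and Solyc04g071780 had 4.73 ± 1.14 and 2.94 ± 0.32 (SD, n = 3 each). CYP85A1 went the other way, with 4.46 ± 0.43 and 5.34 ± 0.36 (SD, n = 3 each). The trichome gene NDPS1 had a mean of 2.75 in NTC of experiment 1 and 4.55 in NTC of experiment 2. The cause of these differences was not tested.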
